A study of Bos taurus with 12 samples.

Results

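The genes described here carry WNT, transforming growth factor beta (TGF-beta), insulin or other growth factor signalling terms in their names. They were chosen by words in the full gene name that the authors' annotation gives each locus: Wnt, frizzled, bone morphogenetic, transforming growth factor, SMAD, activin, growth factor or insulin. A locus counted when it lay on chromosomes 1 to 29 with an edge of the closest annotated feature within 10 kb. This gave 23 genes, of 2469 autosomal genes with a listed locus that close. They carried 25 single CpG sites at 20 genes and 14 windows of 500 bp at 4 genes, and 1 gene, PDGFRA, had both. By words in their names, 6 of these genes were grouped as WNT, 7 as TGF-beta, 10 as other growth factors and none as insulin. The group of other growth factors takes in receptors and genes such as GRB2, EPS8 and GFI1 that code for no growth factor.

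The study measured DNA methylation in sperm of bulls (Bos taurus) whose daughters had low or high fertility, by enzymatic methylation sequencing of the whole genome. Enzymes take the place of bisulfite in this assay and convert the unmethylated cytosines. Of 12 sperm samples, 6 were labelled low and 6 high daughter fertility. The labels give the tissue, sex (male) and fertility group of each sample, and no breed, age or statement that each sample is a different bull.

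WNT proteins are secreted ligands that bind frizzled receptors, and one branch of the pathway stabilises beta-catenin, which APC helps to destroy. TGF-beta, activin and bone morphogenetic protein (BMP) ligands bind pairs of receptor kinases that phosphorylate SMAD proteins, and these enter the nucleus. Fibroblast, platelet-derived and epidermal growth factors act through receptor tyrosine kinases, to which adaptors such as GRB2 couple the RAS pathway. In the testis these ligands are known for signals between somatic and germ cells, while mature sperm make little RNA.

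Each locus had 1 methylation difference between the groups, in percentage points, with a p-value and a q-value, all from the authors' own comparison. Which group was subtracted is not stated, so signs are given as listed and no sign is tied to high or low fertility. Below, "called" means that the authors' q was under 0.05 and that the difference, in either direction, reached 10 points. Levels, coverage and values per sample were not analysed here, so the depth is unknown, and no spread between samples or check of the tissue label can be given. Chromosomes 2, 3, 4, 12, 23 and 27 of the site table, and 12, 23 and 27 of the window table, were not analysed here.

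Single CpG sites near these genes mostly differed little between the groups, and 1 of the 25 was called. In the authors' deposited table that site lay downstream of GRB2, at -11.5 points. The called share was 4%, beside 4.14% of the 4207 autosomal sites within 10 kb of any gene (2.47% in the negative direction), so it was near the background. Only genes with a full name could be chosen here. Over the 3276 autosomal sites within 10 kb of such a named gene, 3.27% were called. Counted by gene, 1 of 20 had a called site, beside 5.28% of 2123 genes. At q below 0.05 and any size there were 2 sites, GRB2 and FZD8, or 8% beside a background of 5.75% (5.04% for named genes). Both were negative, beside 3.59% of all such sites that were negative with q that low, and both also passed with p adjusted by the Benjamini-Hochberg method over all listed sites (background 5.94%). An unadjusted p below 0.05 was listed for 4 of the 25 (16%), beside 20.8% of all such sites (19.6% for named genes).

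The differences were small in either direction. Negative values were listed for 14 of these sites in the authors' deposited table, positive values for 8 and exactly 0 for 3, with a median of -1.04 points and a range from -11.5 to 6.85. Over all autosomal sites near a gene the median was -0.45 points, and 56.3% of the differences other than 0 were negative, beside 63.6% at these genes. In absolute size the median was 2.02 points, beside 2.60 over all such sites, and 20 of the 25 (80.0%) stood under 5 points, beside 72.7%. For sites of named genes the median was -0.30 points, and 55.7% of the differences other than 0 were negative. Their median absolute size was 2.38 points, and 77.0% stood under 5 points.

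**Figure D1:**
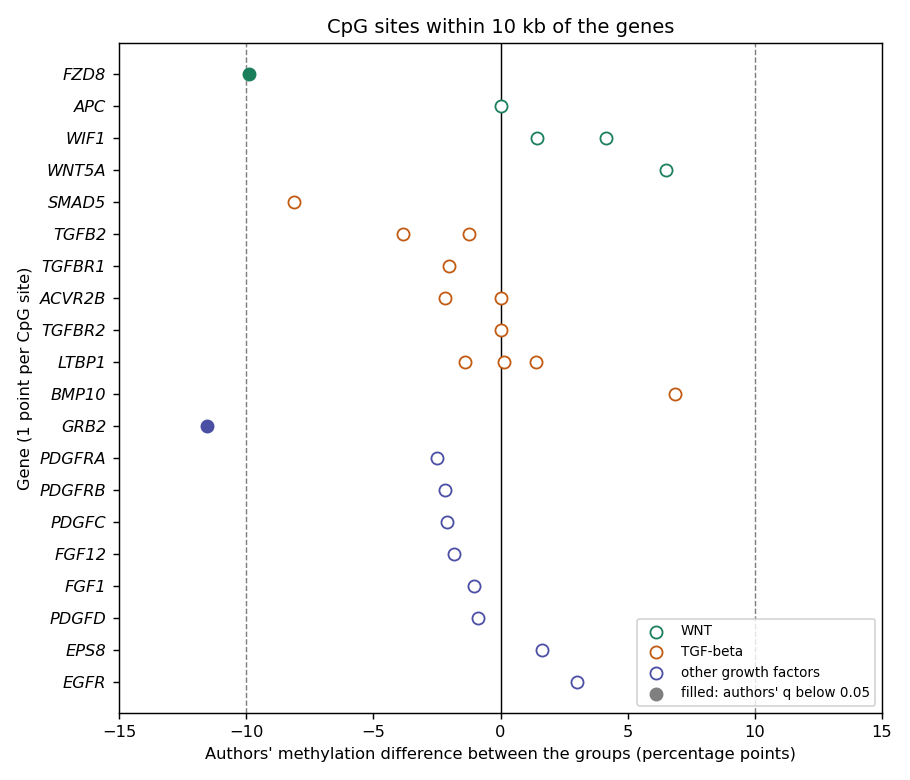
Methylation difference in percentage points (horizontal axis) of each of the 25 CpG sites, 1 point per site, by gene and gene family; filled points have the authors' q below 0.05, and dashed lines mark 10 points in either direction. GRB2 (-11.5) is the single site past a dashed line, FZD8 (-9.88) stands just inside it, and most other sites lie within 5 points of 0.

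Among WNT genes the receptor FZD8 and the ligand WNT5A, with 1 site each, had differences of opposite sign, and neither was called. FZD8, a frizzled receptor for WNT ligands, had 1 site at -9.88 points (q = 0.0254, p = 0.000531) per the authors' deposited table. It lies on chromosome 13 at position 26784518, 755 bp downstream of the coding sequence, and missed the call by its size alone. Of all autosomal sites near a gene, 10.3% had a larger absolute difference. Sites of other frizzled receptors were listed beyond 10 kb. FZD10 stood at -5.90 points (q = 0.606) and FZD3 at 0.90 points (q = 0.726) per the authors' deposited table. WNT5A, a ligand of the branch that does not need beta-catenin, had an intronic site at 6.50 points (q = 0.139, p = 0.0270) per the authors' deposited table, on chromosome 22 at position 45549175. The secreted WNT inhibitor WIF1 had sites 45 bp apart inside an exon on chromosome 5, listed at 4.13 points (q = 0.351) and 1.42 points (q = 0.606) per the authors' deposited table. Deeper in an intron, more than 10 kb from its edges, WIF1 had 2 further sites of the opposite sign, at -8.27 points (q = 0.147) and -5.20 points (q = 0.318) per the authors' deposited table. APC had an intronic site on chromosome 10 at position 1242034, listed at 0 points per the authors' deposited table. No WNT site was called, 3 of the 5 were positive, and the family's median was 1.42 points. That sign depended on the distance limit: over all 12 WNT sites at any distance 7 were negative and 4 positive, with a median of -0.48 points and 1 call, at DKK2.

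In the TGF-beta family no site was called or had q below 0.05, and the largest differences were again of both signs. BMP10, a BMP ligand best known from the heart, had an intronic site at 6.85 points (q = 0.0958, p = 0.00767) per the authors' deposited table, on chromosome 11 at position 67214623. TGFB2, a TGF-beta ligand, had sites 21 bp apart in an intron on chromosome 16, at -3.82 points (q = 0.401) and -1.26 points (q = 0.678) per the authors' deposited table. Both ligands thus had loci in an intron, one positive and the other negative.

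The receptor sites of this family within 10 kb lay close to 0. TGFBR1, the type I receptor for TGF-beta, had a promoter site at -2.02 points (q = 0.263) per the authors' deposited table, on chromosome 8 at position 64133028. TGFBR2, its type II partner, had a site on chromosome 22 at position 5103572, listed at 0 points per the authors' deposited table. The authors class it as promoter. Another listed exon of TGFBR2, on the + strand, ends before it at position 5091914, so that class is uncertain. ACVR2B, a type II receptor for activins, had sites 8 bp apart on chromosome 22, downstream, at -2.17 points (q = 0.471) and 0 points (q = 0.818) per the authors' deposited table. No receptor site of this family within 10 kb thus exceeded 3 points in absolute size. Beyond that distance TGFBR2 had 3 more sites, at -1.11, 2.35 and -0.80 points per the authors' deposited table. A BMPR1B site reached 5.88 points (q = 0.0671) per the authors' deposited table.

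LTBP1, which holds latent TGF-beta in the extracellular matrix, had the most sites of any gene here, in 3 different introns on chromosome 11. In the authors' deposited table they stood at -1.39, 1.41 and 0.14 points (q from 0.370 to 0.857), so they differed in sign. SMAD5, which carries BMP signals to the nucleus, had an intronic site at -8.10 points (q = 0.262, p = 0.107) per the authors' deposited table, on chromosome 7 at position 47595777. The SMAD5 difference was larger in absolute size than that of BMP10, yet its p was larger too, so in this pair the larger difference did not have the lower p.

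Among the other growth factor genes 7 of 9 sites were negative, and the called site belonged to an adaptor. GRB2, which links activated receptor tyrosine kinases to RAS, had its site on chromosome 19 at position 56189933, 8076 bp downstream of a 3′ untranslated region. This site was listed at -11.5 points (q = 0.0122, p = 0.000153) per the authors' deposited table, and 7.68% of all autosomal sites near a gene had a larger absolute difference. GRB2 also had 2 intronic sites on the list, more than 10 kb from the intron's edges, at 0 and 1.32 points per the authors' deposited table. The difference at GRB2 thus rests on 1 CpG.

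The platelet-derived growth factor (PDGF) system was represented by ligands and receptors, each with 1 site within 10 kb. In the authors' deposited table the ligand genes PDGFC (-2.12 points) and PDGFD (-0.89) and the receptor genes PDGFRA (-2.50) and PDGFRB (-2.20) were all negative, with q from 0.277 to 0.501. These 4 values lie within 2 points of each other, and none was called. Over all autosomal sites near a gene 56.3% of the differences other than 0 were negative. PDGFD had 5 more listed sites beyond the limit, of both signs, from -16.7 to 7.23 points per the authors' deposited table. PDGFC had its site in an intron on chromosome 17, PDGFD in a 5′ untranslated region on chromosome 15, and PDGFRA and PDGFRB downstream, on chromosomes 6 and 7.

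The remaining growth factor sites stood at no more than 3.02 points in absolute size. FGF1, a fibroblast growth factor, had a promoter site on chromosome 7 at -1.04 points (q = 0.413) per the authors' deposited table. FGF12, a family member that stays inside the cell, had an intronic site on chromosome 1 at -1.84 points (q = 0.544) per the authors' deposited table. The receptor gene EGFR had an intronic site on chromosome 22 at 3.02 points (q = 0.403) per the authors' deposited table. EPS8, a substrate of that receptor that acts on actin, had a promoter site on chromosome 5 at 1.64 points (q = 0.574) per the authors' deposited table. The EGFR and EPS8 sites were the only positive ones of the 9.

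**Figure D2:**
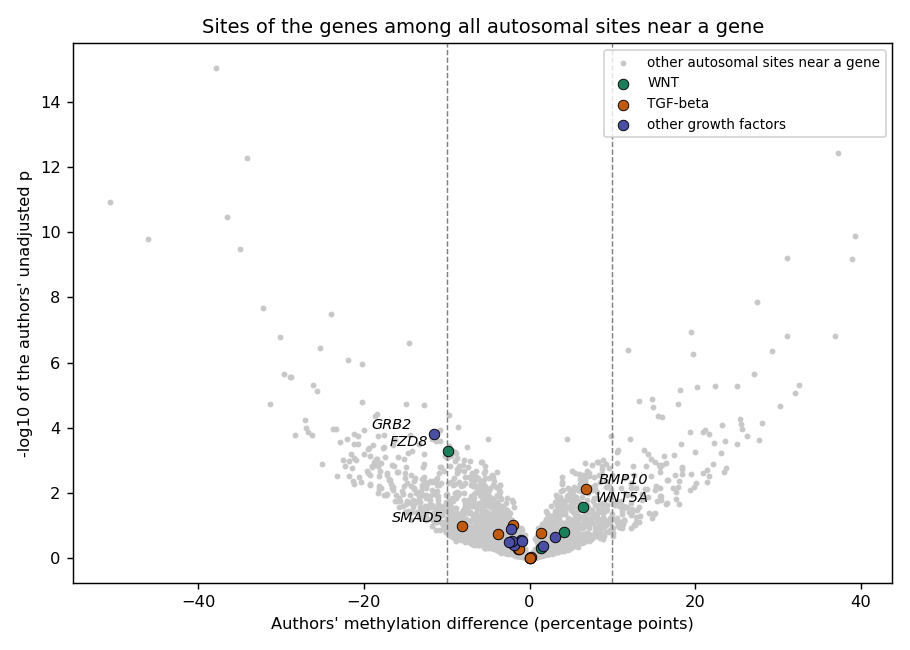
Methylation difference in percentage points (horizontal axis) against -log10 of the authors' unadjusted p (vertical axis) for the 4207 autosomal sites within 10 kb of a gene, with the 25 sites of these genes in colour by family. All coloured sites lie within the cloud, far from the largest differences of the table, and GRB2 and FZD8 stand farthest from 0 among them, on the negative side.

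By role, receptors had 8 sites at 7 genes, of which 5 were negative, 1 was positive (EGFR) and 2 were 0. Ligands had 7 sites at 6 genes, 5 negative and 2 positive (BMP10 and WNT5A). At any distance 10 of 17 receptor sites were negative and 5 positive, and 14 of 19 ligand sites were negative and 5 positive. Of the differences other than 0, receptors thus had 83.3% negative within 10 kb and 66.7% at any distance. For ligands these shares were 71.4% and 73.7%. The backgrounds were 56.3% of all autosomal sites near a gene and 57.5% of those with a gene at any distance. Secreted or matrix binding proteins (WIF1 and LTBP1) had 5 sites, 4 of them positive, but at any distance, with DKK2, 7 of 12 sites were negative and 5 positive. The 4 sites of genes grouped as intracellular (GRB2, SMAD5, APC and EPS8) included both the largest negative difference and a value of 0. The FGF12 site (-1.84 points) was kept apart from these roles, although that protein also stays inside the cell. With 4 to 8 sites a role, these are descriptions.

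The 500 bp windows, which start on a 100 bp grid and so overlap, gave no called locus at 4 genes of this set. All 14 windows stood between -1.78 and 0.37 points per the authors' deposited table, and the background of called windows was 2.01% of 1791, or 1.96% of 460 genes. A q below 0.05 was listed for 10 of the 14 (71.4%), beside a background of 67.2%. Of these 10, 8 were negative (57.1% of the 14, background 46.2%). An unadjusted p below 0.05 was listed for 9 (64.3%, background 60%). With the authors' p adjusted by the Benjamini-Hochberg method over all listed windows, 8 of the 14 passed (57.1%, background 56.7%). Over the 1256 windows within 10 kb of a named gene, 1.27% were called and 61.1% had q below 0.05. For the unadjusted and the adjusted p these shares were 53.6% and 49.8%. The 14 windows form only 4 stretches, and the shares were not compared by a test.

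FZD3, a frizzled receptor known from axon guidance, had 7 overlapping windows in 1 intron on chromosome 8, from position 10210101 to 10211300. In the authors' deposited table they stood, from the lowest position to the highest, at -1.78, -1.24, -1.50, -1.55, -1.13, -1.60 and -0.76 points. All 7 were negative with q from 1.58e-06 to 0.0485, and they share CpG sites, so they count as 1 stretch of 1200 bp rather than 7 observations. The seventh window had an unadjusted p of 0.0555, above its q, per the authors' deposited table. The closest listed window of another gene lay 78601 bp away. A listed FZD3 site 12863 bp from an exon stood at 0.90 points (q = 0.726) per the authors' deposited table, which is the opposite sign, and it lay 72147 bp from the windows.

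The other windows differed by at most 0.51 points. FRZB, a secreted protein that binds WNT ligands, had 3 windows over its coding sequence on chromosome 2, at -0.26, -0.21 and -0.29 points per the authors' deposited table (q from 0.0529 to 0.0851). The authors' unadjusted p for these windows ran from 0.197 to 0.339, well above their q. GFI1 had 3 intronic windows on chromosome 3, at 0.31, 0.37 and 0.31 points per the authors' deposited table (q from 0.0189 to 0.0636), and was the only gene here with positive windows. GFI1 is a transcriptional repressor of blood cell development, chosen because its name holds the words growth factor, and is no growth factor itself. PDGFRA had 1 promoter window, with 2155 bp between it and a 5′ untranslated region on chromosome 6, at -0.51 points (q = 0.000602) per the authors' deposited table. Its sign was that of the PDGFRA site downstream of the gene.

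**Figure D3:**
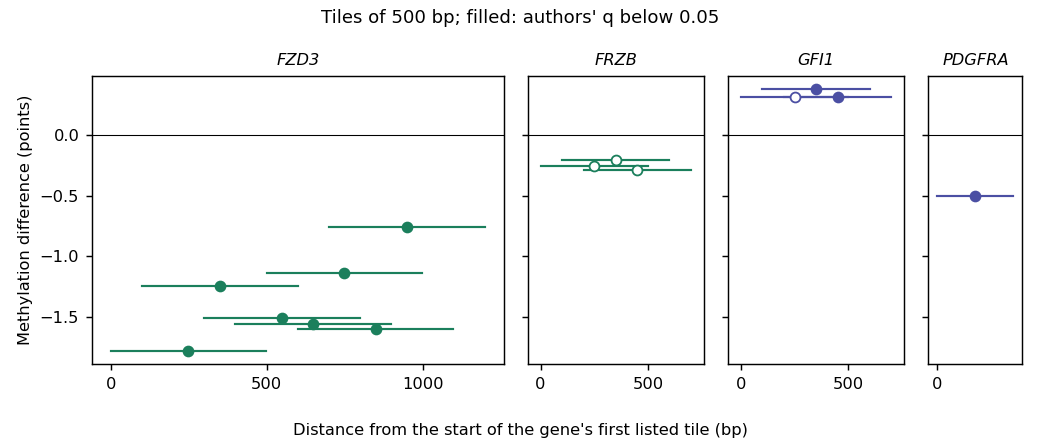
Methylation difference in percentage points (vertical axis) of the 14 windows of 500 bp, drawn as bars with their centres as points, against the distance in bp from the start of each gene's first window; filled points have the authors' q below 0.05. The 7 FZD3 windows lie between -1.78 and -0.76, while those of FRZB, GFI1 and PDGFRA stay within 0.51 points of 0.

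The 2 tables could not be compared at the same place. None of the 25 sites lay in a listed window or within 10 kb of one, and none of the 14 windows had a listed site within 10 kb. FRZB and GFI1 lie on chromosomes whose sites were not analysed here. Both tables come from the same samples, so a match would not have been independent.

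The sites lay on 13 chromosomes, and 15 of the 23 genes had a single listed locus. Only the 6 sites of WIF1, TGFB2 and ACVR2B had another listed site within 1000 bp, and within each pair both sites were on the same strand. Within 100 kb 15 of the 25 had another listed site. No such shares were computed over all sites. No other called site lay within 100 kb of any of the 25. The closest one to the GRB2 site was 7626184 bp away and the closest to the FZD8 site 4809545 bp away, both on their own chromosome. The called site of this set therefore lay in none of the dense stretches of calls in the series.

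The position classes of the sites were close to those of other sites. The kinds of closest feature differed more, but on few sites. In the authors' classes 15 of the 25 (60.0%) lay inside a feature, 6 downstream and 4 in a promoter, beside 59.0%, 21.4% and 19.6% of all autosomal sites near a gene. The closest feature was an intron for 16 of the 25 (64.0%, beside 55.9%), an exon for 4 (16%, beside 6.70%) and a coding sequence for 1 (4%, beside 24.3%). These shares were not tested, and the 4 exon sites include both WIF1 sites, which lie in the same exon. For 4 sites (TGFBR1, EPS8 and both of ACVR2B) the listed intron has its start after its end, which held for 4.85% of all such sites. No true intron can have these coordinates, so the promoter or downstream class of these 4 sites is uncertain.

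The listed distance runs to the nearest edge of the feature, also for loci inside it, and the 10 kb limit therefore leaves out CpGs deep in long introns. The site nearest to the limit on the inner side was an LTBP1 site 8577 bp from an edge (1.41 points), and on the outer side an intronic FGF2 site at 10222 bp (0.85 points), per the authors' deposited table. Beyond the limit 37 more sites carried a name with one of the words, at 17 genes, 13 of them inside an intron or other feature. None of those 13 was called, and 1 of the 24 outside a feature was (4.17%). Over all autosomal sites with a gene at any distance 4.31% were called. These counts are too small to set inside apart from outside.

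The called site beyond the limit belonged to DKK2, a secreted WNT antagonist. In the authors' deposited table it stood at -13.3 points (q = 0.0406), on chromosome 6 at position 18368501, 113691 bp from a 3′ untranslated region. DKK2 had 2 further sites, at -0.03 and -0.94 points per the authors' deposited table. The largest difference of any site with one of the words was at PDGFD, with -16.7 points (q = 0.0763) 85400 bp from an exon, per the authors' deposited table. Listed sites 6 bp before and 8 bp after it stood at 7.23 and -6.49 points per the authors' deposited table, so neighbouring CpGs differed in sign. The PDGFD site and this comparison of its neighbours were singled out after their values were seen.

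Ligands and receptors of the BMP branch were listed mostly beyond the limit. BMP4 had 3 sites, at -3.23, -3.23 and -4.73 points per the authors' deposited table (q from 0.219 to 0.346), 11218 to 44854 bp from an exon. BMP2 had a site at -6.89 points (q = 0.123) per the authors' deposited table. The receptor genes BMPR1A (2.13 points) and BMPR1B (-1.45, 5.88 and -2.26 points) were not called either per the authors' deposited table. FGF10, a growth factor of budding organs, had a site at -7.32 points with q = 0.0519 per the authors' deposited table, 15732 bp from a 3′ untranslated region. The single locus with the word insulin was an intronic site of IGF2BP2, which binds messenger RNA, at 1.31 points (q = 0.632) per the authors' deposited table. At any distance 2 of 62 sites were called (3.23%), beside 4.31% of all autosomal sites with a gene.

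**Figure D4:**
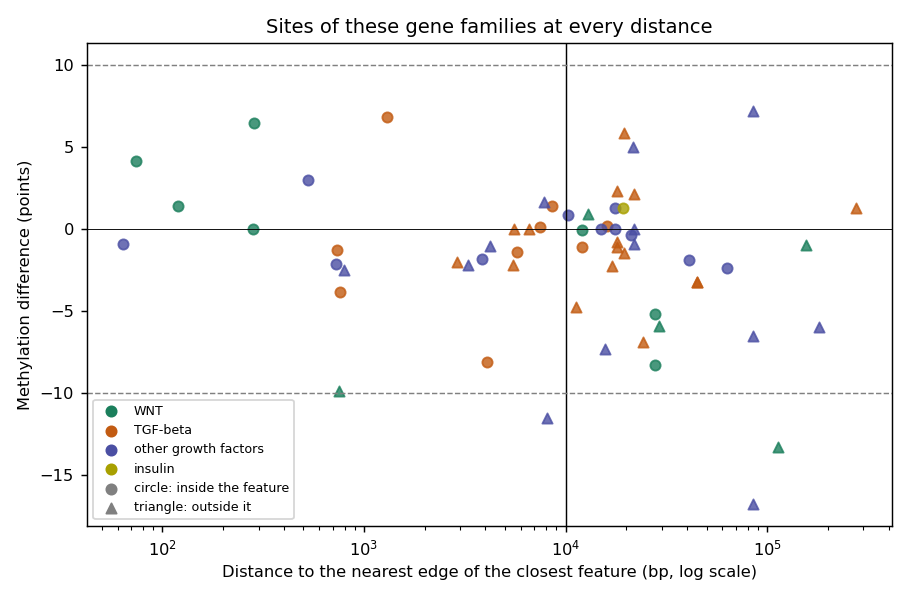
Methylation difference in percentage points (vertical axis) of all 62 sites with one of the words against the distance in bp to the nearest edge of the closest feature (log scale); circles lie inside the feature, triangles outside, and the vertical line marks 10 kb. The sites past the dashed lines at 10 points are those of GRB2, DKK2 and PDGFD, all outside a feature, and the PDGFD site did not pass q below 0.05.

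Other genes of these pathways, from lists of words in gene names, gave no call within 10 kb in either direction. The background was 4.14% of all autosomal sites near a gene, or 3.27% for named genes. These other genes held 36 sites at 28 genes, 15 negative, 20 positive and 1 at 0, with a median of 0.22 points and no q below 0.05. An unadjusted p below 0.05 was listed for 2 of the 36 (5.56%), beside 20.8% of all autosomal sites near a gene and 19.6% for named genes. In the WNT list (9 sites) LRP6, the co-receptor of frizzled, stood at -2.83 points (q = 0.236) per the authors' deposited table. Matching by words also took genes that are no part of these pathways, such as activating transcription factor 7 in this list and nodal modulator 1 in the next. The 4 sites of the TGF-beta list included growth differentiation factor 5, a BMP-like ligand of joints, at 5.48 points (q = 0.169) per the authors' deposited table. The insulin list had 4 sites at 3 genes, none of them called. The list of receptor and kinase genes had 19 sites at 12 genes. Its largest difference was 10.96 points at an intronic site of mitogen-activated protein kinase kinase 5, with q = 0.344 per the authors' deposited table, so it was not called. Windows were listed for 3 genes of these lists, neuregulin 2, sprouty RTK signaling antagonist 4 and neuron derived neurotrophic factor. None of these 8 windows exceeded 0.76 points in absolute size per the authors' deposited table. A q below 0.05 was listed for 4 (50%), beside the background of 67.2% (61.1% for named genes).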

How the data were processed

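Sperm DNA of 12 bull samples (6 low, 6 high daughter fertility) was profiled by enzymatic methylation sequencing. Trimmomatic, Bismark, methylKit and build ARS-UCD1.2 appear, without versions, roles or settings, in the submitters' processing notes. The files analysed were the authors' deposited comparison of the groups, at 17730 CpG sites and 7290 windows of 500 bp. The p-values, q-values and methylation differences (percentage points) are the authors', per the file headers. Their adjustment is not stated. In every chromosome of both tables q never fell as p rose, and sites with p of 1 had 1 q per chromosome, from 0.755 to 0.877 between chromosomes. The same p therefore has different q on different chromosomes. The q lay below p for 18.5% of sites and 68.7% of windows.

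Loci were selected and counted with Python 3.11.15 and pandas 2.3.3, and the counting and adjustment steps were tested on simulated data. No new test between groups was run and no interval was computed, since no per-sample values or depths enter the tables used. Backgrounds are all autosomal loci within 10 kb of a feature with a gene identifier. Those for named genes keep only the loci whose gene has a full name. Gene symbols follow from the full names in the files, and all 23 stand on the same chromosome in the RefSeq table of ARS-UCD2.0. The naming rule took every gene with a call, the 3 genes with the most loci in each family, the genes with q below 0.05, in both tables or nearest the distance limit. Since the set is short, its other genes are given too. The members, lists and thresholds were chosen with earlier results of these data known. The closing section gives the effect of other limits on q, difference, distance and words.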

Additional observations from a re-analysis of the deposited data

How the results depend on the processing

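The counts rest on 1 CpG and follow the limits chosen. The count of called sites and of genes with one was 1, and became 0 with q below 0.01, with at least 20 points, with features within 5000 bp, or for loci inside a feature at any distance. It became 2 with no limit on the difference (FZD8 joins GRB2) or at any distance, the latter chosen after seeing the data. It stayed 1 when the authors' p were adjusted by Benjamini-Hochberg over all listed sites, where GRB2 had an adjusted value of 0.00649 and FZD8 one of 0.0153. The share of negative signs among called sites rests on 1 or 2 sites and says nothing about stability. Called windows were 0 in all alternatives but that with no limit on the difference, where 10 windows at 3 genes passed. The largest window difference in absolute size was -1.78 points, so no alternative with a limit of 10 or 20 points could give a call. The median difference of sites, -1.04 points, was -1.26 within 5000 bp, -1.06 with 1 mean per gene, -1.15 without LTBP1 and -0.013 inside features. In alternatives chosen after seeing the data it was -0.61 when loci inside a feature had distance 0 and -0.99 at any distance. The median of windows, -0.63 points, was -0.76 inside features, -0.38 with 1 mean per gene and -0.21 without FZD3. Adding chromosome X or matching words only at word starts selected the same loci, so these alternatives could change no count or median. The cause of these shifts was not tested beyond the number of loci left. No sample could be left out in turn and no coverage minimum changed, since the tables used give 1 value per locus.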
